A study of Sus scrofa with 6 samples.

Results

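The 6 renal medulla arrays of this experiment were divided into 3 with high and 3 with lower mRNA of LRP2, a proximal tubule gene, with 1 array of the lower side in between, and each side held both Sham and CPB arrays. The arrays were selected on 1 value, the linear RMA intensity of a probe set for LRP2, which encodes megalin, the endocytic receptor of the proximal tubule. The 3 arrays above an intensity of 1500, Sham 2, CPB 1 and CPB 3, are called LRP2-high, and the 3 arrays below it, Sham 1, Sham 3 and CPB 2, are called LRP2-low, so all 6 arrays of the series were used. RNA came from adult female crossbred farm pigs (Large White and Landrace), 1 animal per array. Sham pigs had 2.5 hours of general anaesthesia with the neck dissected and heparin given, and CPB pigs had 2.5 hours of cardiopulmonary bypass, in which a pump and an oxygenator take over from heart and lungs, with the same anaesthesia, dissection and heparin. All pigs were re-anaesthetised 24 hours later, when the kidney was removed, and small blocks were cut from the outer medulla, so that each array reports the mixture of cells in its own block.

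As background, the kidney filters blood in the cortex, and the filtrate then passes along the nephron. Its first part, the proximal tubule, takes back most of the filtered solutes and proteins, breaks down amino acids, makes glucose and carries HNF4A as a main transcription factor. The straight end of the proximal tubule dips into the outermost stripe of the medulla, whereas loops of Henle and collecting ducts run deeper, to the papilla. Papilla and pelvis are bounded by urothelium, a layered epithelium whose surface umbrella cells carry uroplakins and mucins.

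Values below are linear RMA intensities, always in the order Sham 1, Sham 3 and CPB 2 for the LRP2-low arrays and Sham 2, CPB 1 and CPB 3 for the LRP2-high arrays. The LRP2 probe set used for the choice read 181, 899 and 169 in the LRP2-low arrays and 2389.6, 2469 and 2740.2 in the LRP2-high arrays. The LRP2-high arrays lay within 0.20 of each other on the log2 scale, whereas Sham 3 stood apart inside its own side. Sham 3, the array just under the limit, had 899, and Sham 2, the array just above it, had 2389.6, which is 2.66-fold more, but the gap from Sham 1 to Sham 3 inside the LRP2-low side was wider, at 4.97-fold. A second LRP2 probe set read 127, 823 and 146 against 1804, 2419.9 and 3150.1, with Sham 3 again in between. Each difference below is the mean log2 intensity of the LRP2-high arrays minus that of the LRP2-low arrays. Since the sides were chosen on an array value, these differences are a description and no test was run on them, and the other LRP2 probe set reads the same mRNA and adds nothing independent. An array measures a share of the RNA, so fewer cells of a type and less mRNA per cell cannot be told apart.

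The urothelial part of the division rested on a few genes. UPK3A, a uroplakin of the umbrella cell plaque, was at 415, 528 and 837 in the LRP2-low arrays and 61.6, 55.4 and 56.6 in the LRP2-high arrays, a difference of -3.30. MUC4, a membrane mucin, was at 745, 955 and 3699 in the LRP2-low arrays and 26.3, 26.4 and 25.8 in the LRP2-high arrays, with a difference of -5.72. In the LRP2-high arrays MUC4 lay below the 25th percentile of all probe sets, which was between 37.1 and 38.5 in those arrays, so those readings are near the bottom of the range and the fold between the sides is not well bounded. UPK1B, another uroplakin, read 207, 1208 and 116 against 33.4, 35.3 and 28.4 and was highest in Sham 3. The remaining uroplakins measured did not separate the sides, with UPK1A at 40.2, 109 and 30.3 against 36.9, 36.8 and 40.4, and UPK2 at 63.7, 85.98 and 71.5 against 63.97, 64.2 and 58.4. The array annotation used here names no probe set for KRT5, KRT20, TP63 or UPK3B, so basal and umbrella cell markers of the urothelium were checked only in part, and the arrays are therefore called by their LRP2 level.

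**Figure D1:**
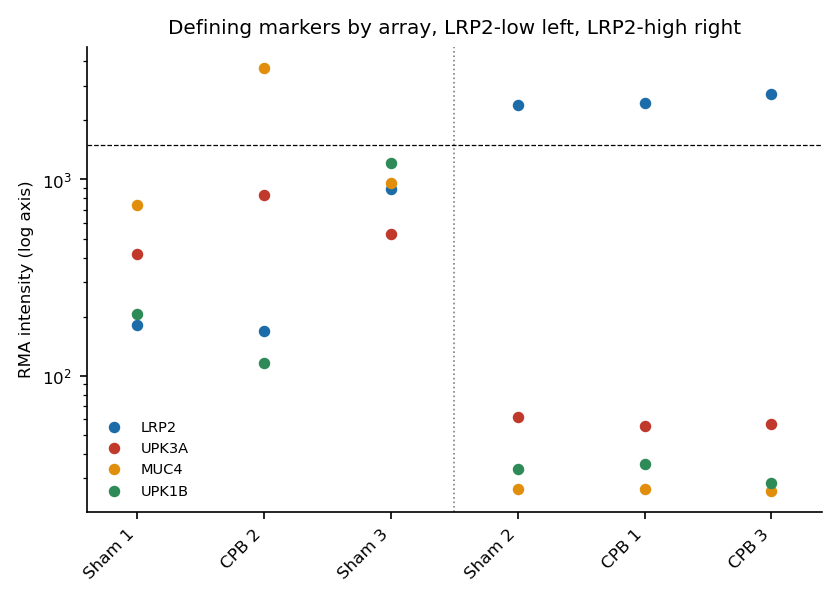
RMA intensity (log axis) of LRP2, UPK3A, MUC4 and UPK1B in each of the 6 arrays, 1 point per array, with the LRP2-low arrays left of the dotted line, the LRP2-high arrays right of it, and the limit of 1500 for LRP2 as a dashed line. LRP2 is at 169 to 899 on the left and at 2389.6 to 2740.2 on the right, and the other 3 genes are all higher on the left.

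Both treatments were present on both sides. The LRP2-high arrays were 1 Sham and 2 CPB, and the LRP2-low arrays were 2 Sham and 1 CPB. Across all 23999 probe sets, arrays of the same side correlated at a Pearson r of 0.967 to 0.990 on the log2 scale, and arrays of opposite sides at 0.919 to 0.958. Within Sham, Sham 1 resembled Sham 2 (r = 0.939) less than it resembled CPB 2 (r = 0.980). The first principal component held 66.4% of the variance between the arrays and put the 3 LRP2-high arrays on one end and the 3 LRP2-low arrays on the other, and the second, with 15.1%, set Sham 3 against CPB 2. These correlations are across probe sets, which are not independent replicates, and the arrays were normalised together, with median intensities from 94.3 to 96.5.

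Of the 23999 probe sets, 878 (3.66%) were at least 2-fold higher in the LRP2-high arrays and 1036 (4.32%) at least 2-fold lower. In 5109 (21.3%) all 3 LRP2-high values lay above all 3 LRP2-low values, and in 3920 (16.3%) all lay below. Counted once per gene, with the brightest probe set, 399 of 6765 genes (5.9%) were at least 2-fold higher and 390 (5.76%) at least 2-fold lower, and the groups did not overlap in 1554 (23%) and 1465 (21.7%). The median difference over all genes was 0.01. Differences of at least 8-fold were rarer, with 72 probe sets higher and 31 lower.

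Proximal tubule genes made up a large block of those higher. Of 118 genes in 6 lists of proximal tubule receptors, transporters, hydrolases, enzymes and transcription factors, 62 were measured by a probe set with 1 symbol, 52 of these were at least 2-fold higher in the LRP2-high arrays and 1 at least 2-fold lower, with a median difference of 2.30 against 0.01 over all genes. The values did not overlap in 55 of the 62 that were higher and in 1 that was lower. Among all genes 5.9% were at least 2-fold higher, and 23% were higher without overlap. Sham 3 lay between the other LRP2-low arrays and the LRP2-high arrays in 51 of the 62. Without Sham 3 the median was 2.64, with the same counts of 52 and 1. The sides were chosen on a gene of this block, so these counts describe how widely the segment moved with LRP2 and support nothing beyond it.

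Receptors and their partners came first. AMN, the membrane anchor of the cubilin receptor, was at 66.9, 417 and 246 in the LRP2-low arrays and 1601, 1612 and 1931 in the LRP2-high arrays, a difference of 3.17. DAB2, the adaptor that binds the tail of megalin, read 469, 649.7 and 339.9 against 2090.3, 2532 and 2522, and CLCN5, the chloride exchanger of endosomes, read 52.7, 137 and 67.8 against 309, 321 and 505. LGMN, a lysosomal protease, differed less (1.498), from 2004, 3492 and 2136 against 6649, 7782 and 6506. Sham 1 and CPB 2 were the lowest arrays for each of these receptor, adaptor and lysosomal genes. Values of FOLR1, the folate receptor, overlapped, at 158, 219 and 139 against 193, 169.8 and 178, as did those of CTNS, the lysosomal cystine carrier. Of the 7 measured genes 5 were at least 2-fold higher, against 5.9% of all genes.

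Among the apical transporters 12 of 29 were measured, 10 were at least 2-fold higher, against 5.9% of all genes, and none lower. SLC7A9 and SLC3A1 encode the light and heavy chain of the cystine and basic amino acid carrier. SLC7A9 was at 21.98, 153 and 25.1 in the LRP2-low arrays and 549.7, 541 and 957 in the LRP2-high arrays, with a difference of 3.90, and SLC3A1 at 125, 423 and 107 against 1672, 1096 and 1672, with 3.02, whereas another SLC3A1 probe set overlapped, at 384, 421 and 191 against 214, 293 and 263. SLC17A1, a phosphate and urate transporter, read 24.02, 71.9 and 35.4 against 491, 434 and 568, and the scaffold PDZK1 read 563, 1314 and 628 against 3278, 4108 and 3743. On their brightest probe sets both chains of the carrier and the scaffold were lowest in Sham 1 and CPB 2. The peptide carrier SLC15A2 read 111, 379.6 and 89.2 against 552, 575 and 622, whereas its relative SLC15A1 was almost level, at 88.9, 101 and 97.8 against 108, 106 and 108. SLC9A3, the sodium and proton exchanger, also differed little (0.25), on a dim probe set at 46.3, 54.99 and 51.7 against 60.7, 55.9 and 64.96. SLC5A1, the glucose carrier of the late proximal tubule, was at 115, 138 and 75.7 against 159, 345 and 319, and Sham 2 stood below CPB 1 and CPB 3 there.

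Basolateral transporters gave 6 of 7 measured genes at least 2-fold higher, against 5.9% of all genes. Of the organic anion carriers, SLC22A6 read 93.2, 194 and 132 against 558, 385 and 594, and SLC22A8 read 78.7, 353 and 121 against 1341, 1801 and 1908. SLC22A2, the organic cation carrier, was at 403, 933 and 373 against 3155, 4876 and 3486, and SLC4A4, the sodium bicarbonate cotransporter, at 55.04, 184 and 59.5 against 416, 707 and 779. The glucose exit carrier SLC2A2 was at 38.3, 54.5 and 32.9 against 115, 156 and 208, so entry of organic ions, bicarbonate exit and glucose exit were all represented on the same side. ABCC6 went the other way, at 272, 109 and 245 against 81.00, 89.7 and 106, but its other probe sets gave 0.23 and -0.43, so the probe sets of this gene disagree in size and direction.

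The brush border hydrolases cut peptides at the luminal surface. DPP4 was at 164, 464 and 229.6 in the LRP2-low arrays and 1825, 2451 and 2220.5 in the LRP2-high arrays, a difference of 3.05. MEP1B, a subunit of meprin, read 16.8, 108 and 26.7 against 357, 389 and 852, and DPEP1, a dipeptidase, read 66.5, 389 and 164 against 1099, 1107 and 1705. ANPEP, the neutral aminopeptidase, was at 181, 667 and 370.2 against 1473, 1876 and 2183. In all 8 measured hydrolases the LRP2-high values lay above the LRP2-low values, against 23% of all genes. At least 2-fold higher were 7, against 5.9% of all genes, the exception being ACE (0.55).

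Enzymes of the segment formed the longest list, with 26 of 45 measured and a median difference of 2.37. At least 2-fold higher were 23, against 5.9% of all genes, and none was at least 2-fold lower. PCK1 and FBP1 catalyse steps of glucose synthesis. PCK1 was at 1185, 2427 and 1347 in the LRP2-low arrays and 5979, 6449.8 and 6749 in the LRP2-high arrays, with a difference of 2.02, and FBP1 at 310.2, 2688 and 507 against 6336, 7300.4 and 8212, with 3.27. MIOX, which opens the ring of inositol, read 209.5, 1587 and 631 against 4218, 3764 and 4979. These 3 genes differed by at least 4-fold between the sides. Of the enzymes of tyrosine breakdown, HPD was at 14.7, 41.9 and 28.96 against 162, 225 and 356, with LRP2-low readings near the bottom of the range, and FAH at 154, 259 and 250.4 against 1158, 904 and 1241. AGXT2, a mitochondrial aminotransferase, was at 69.2, 637 and 219 against 3268, 2336 and 2703, and BHMT, which remethylates homocysteine, at 71.4, 493 and 92.3 against 967, 2655 and 3125. UPB1 and DPYS, the later enzymes of pyrimidine breakdown, gave 3.81 and 3.44. On their brightest probe sets none of these enzymes of amino acid and pyrimidine breakdown overlapped between the sides. Dimmer DPYS probe sets overlapped, with 0.20 and 0.29. ASS1 and ASL, which make arginine from citrulline, gave 2.35 and 2.40. CYP27B1, which activates vitamin D, read 41.5, 73.4 and 61.7 against 116, 304 and 261, and CYP24A1, which inactivates it, read 60.7, 55.8 and 92.2 against 185, 133 and 203. Enzymes of both arms were thus higher in the LRP2-high arrays.

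Members of the enzyme list that did not follow were few. HSD17B2, a steroid dehydrogenase, was at 71.7, 964 and 88.99 in the LRP2-low arrays and 760.0, 612 and 1395 in the LRP2-high arrays, so that Sham 3 lay among the LRP2-high arrays. GSTA1, a glutathione transferase with close relatives whose transcripts may share probes, overlapped at 477, 1266 and 506 against 563, 191 and 385. KYNU and CYP2E1 overlapped too, with differences of -0.02 and 0.25, and CYP2E1 was dim on every array, at 12.4 to 17.5. HNF4A read 163, 559 and 186 against 1496, 1646 and 1718, with 98.8, 195 and 125 against 429.7, 463 and 612 on a second probe set. PPARA, a regulator of fat oxidation, read 36.1, 38.7 and 38.01 against 44.4, 53.01 and 83.8.

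The later segments did not follow the proximal tubule as a block. AQP1, the water channel of the proximal tubule and the thin descending limb, was bright and level on its brightest probe set, at 5515, 3932 and 4465 in the LRP2-low arrays and 5507, 5122 and 5547 in the LRP2-high arrays, while a dimmer probe set read 281, 470.0 and 133 against 341, 333 and 716. Of the 22 thick ascending limb genes 9 were measured, with a median difference of -0.15, and UMOD and SLC12A1 were not named by the annotation. EGF, made in the thick limb and distal tubule, was at 1579, 660.2 and 701 against 2179, 1928 and 1739, and Sham 1 lay closest to the LRP2-high arrays. KCNJ1, the apical potassium channel, was at 2219, 881 and 2128 against 1250.5, 1249 and 835, and CLDN10, a tight junction protein, at 2051, 1419 and 1803 against 1748, 1765 and 1965, and both overlapped. PPP1R1A, a phosphatase inhibitor, was at 2900.4, 907 and 2375 against 719, 777 and 470.0, and MAL, a membrane raft protein, at 1243, 1411 and 1407 against 433, 402 and 337. The thick limb list thus held 1 gene at least 2-fold higher and 2 at least 2-fold lower, against 5.9% and 5.76% of all genes.

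Farther along, KLK1, the tissue kallikrein of the connecting tubule, was at 97.9, 334 and 187 in the LRP2-low arrays and 1704, 1804 and 959 in the LRP2-high arrays, a difference of 2.97. It was the only one of the 4 measured distal convoluted and connecting tubule genes at least 2-fold apart. WNK4, a kinase that regulates distal salt uptake, was at 199.5, 147 and 223 against 203, 186 and 128. Of 16 listed genes of intercalated cells, the acid and base secreting cells of connecting tubule and collecting duct, 5 were measured. All 5 were higher in every LRP2-high array, against 23% of all genes, with a median difference of 1.51. The annotation named no probe set for ATP6V1B1, SLC4A1, SLC26A4, FOXI1, CA2 or RHCG. RHBG, an ammonia transporter, was at 50.1, 87.4 and 70.4 against 539, 385 and 136, and HEPACAM2, a cell adhesion protein, at 101, 141 and 65.3 against 434, 290.3 and 399, with the proton pump subunit ATP6V0D2 at 77.9, 148 and 40.6 against 227, 161 and 299. Another subunit, ATP6V0A4, was at 245, 177 and 223 against 263, 269.5 and 269. The 5 measured intercalated cell genes were therefore higher on the side of the proximal tubule genes, although ATP6V0A4 differed by 0.33 alone.

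Principal cells, the water and sodium absorbing cells of the collecting duct, were divided. AQP3, the basolateral water channel, was at 4831, 2589.6 and 5437 in the LRP2-low arrays and 1048, 1079.8 and 1280.4 in the LRP2-high arrays, a difference of -1.85. GATA3, a transcription factor of collecting duct and urothelium alike, was at 935, 999 and 2765 against 232, 245 and 139, and 2 of its other probe sets gave -2.09 and -2.11. A dimmer GATA3 probe set overlapped (-0.46). SCNN1B, a subunit of the sodium channel, leaned the other way, at 107, 98.2 and 118 against 187, 174 and 165, and SCNN1A differed by 0.32. AVPR2, the vasopressin receptor, was at 166, 156 and 269 against 149, 142 and 127, and HSD11B2, which protects the mineralocorticoid receptor, overlapped at 638, 1150.4 and 919.5 against 1903, 1053 and 921. Of the 7 measured principal cell genes 2 were at least 2-fold lower, against 5.76% of all genes, and none higher. AQP2 was not named by the annotation.

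Of 11 listed genes for osmolytes, urea and prostaglandins, which are linked to the deep medulla, 4 were measured. In every LRP2-high array 3 were lower and 1 was higher, against 21.7% and 23% of all genes. CRYAB, a small heat shock protein abundant in the papilla, was at 3364, 2219.9 and 3559.9 in the LRP2-low arrays and 660.4, 420.0 and 624 in the LRP2-high arrays, a difference of -2.42. PTGES and PTGS1, enzymes of prostaglandin synthesis, gave -0.76 and -0.61, without overlap. Another PTGS1 probe set overlapped (0.17), at 51.1, 73.6 and 54.4 against 64.1, 61.9 and 74.1. SH3GL3, which was listed as a thin limb marker, read 225, 311 and 477 against 21.6, 25.7 and 26.5. GPX2, an epithelial peroxidase, was the gene that was higher (0.22), and CRYAB was the only one of the 4 at least 2-fold lower. The annotation named no probe set of this list for the osmolyte carriers or the urea transporters.

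Epithelial adhesion and keratin genes were lower in the LRP2-high arrays. CDH1, the cell adhesion protein E-cadherin, was at 2079, 3014 and 3518 in the LRP2-low arrays and 722, 716 and 594 in the LRP2-high arrays, a difference of -2.06. Of the simple keratins, KRT8 read 1357, 1539 and 1923 against 660.4, 828 and 669, and KRT18 read 367, 492 and 583 against 265, 237 and 225. EPCAM was at 3896, 4603 and 3705 against 2095, 2691 and 2199. Every one of these 4 was lower without overlap, against 21.7% of all genes. LHX1, a kidney developmental factor, was the 1 general epithelial gene of 5 that was higher (0.78).

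In the 3 urothelium lists 25 of 58 genes were measured. In the LRP2-high arrays 14 were at least 2-fold lower and 1 at least 2-fold higher, against 5.76% and 5.9% of all genes. UPK3A and MUC4 were among the 14, and the lists were chosen with earlier results of these data known. These counts are therefore a description only. The median difference was -1.39, or -1.13 without Sham 3. KRT19 was at 815, 1215 and 1802 in the LRP2-low arrays and 277, 456 and 455 in the LRP2-high arrays, and DSP, a desmosome protein, at 825, 883 and 1099 against 252, 339 and 201. The claudins CLDN4 and CLDN7 gave -1.39 and -1.78. SFN was highest in Sham 3, at 75.5, 316 and 103 against 57.8, 51.2 and 60.01. SDC1, a surface proteoglycan also carried by plasma cells and by other epithelia, was the gene that was higher, at 96.9, 275 and 121 against 305, 650.2 and 616, although another SDC1 probe set overlapped (0.19). COL17A1, CDH3 and TRIM29, markers of basal cells, overlapped, with differences of 0.08, 0.10 and -0.39.

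Of 6 measured transcription factors of urothelium 5 were at least 2-fold lower in the LRP2-high arrays, against 5.76% of all genes. FOXA1 was at 79.2, 138 and 264 in the LRP2-low arrays and 16.6, 15.5 and 16.6 in the LRP2-high arrays, a difference of -3.13. EHF was at 388, 500.3 and 423 against 53.1, 62.1 and 45.2, PPARG at 116, 204 and 288 against 47.4, 38.6 and 49.4, and ELF3 at 289, 452 and 457 against 161, 132 and 126, with overlap on a dimmer ELF3 probe set (-0.35). FOXA1 and PPARG were highest in CPB 2, as was GATA3. OVOL1 overlapped (0.07). Several of these factors also act in collecting duct and other epithelia, so the lists do not separate urothelium from those cells. Among 7 measured genes of secretory and mucosal epithelium none was 2-fold apart, and WFDC2 gave the widest difference, at 3835, 4178 and 4360.4 against 2606, 2392 and 1664.

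**Figure D2:**
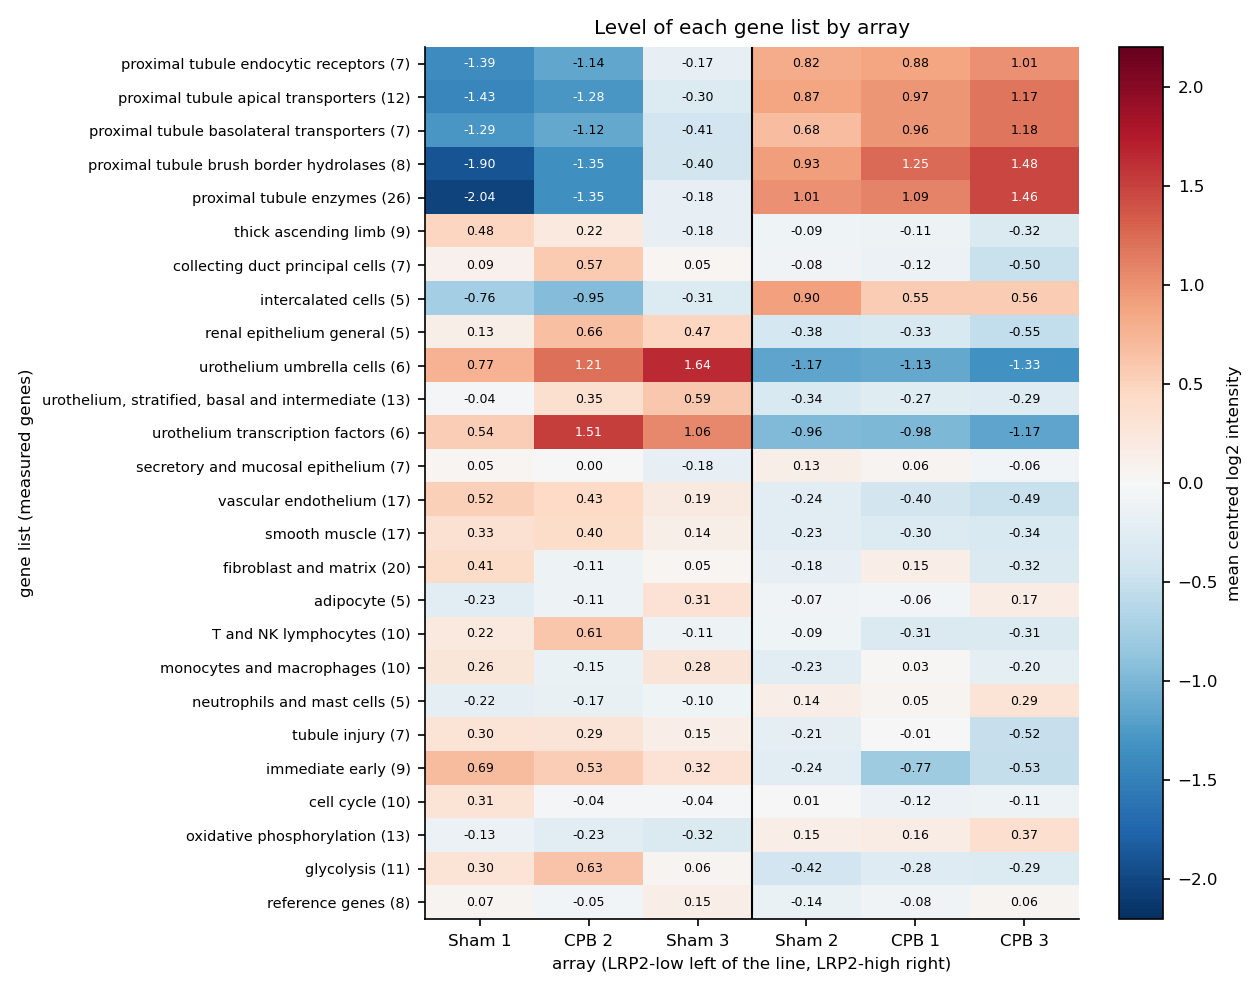
Level of each of the 26 gene lists with at least 5 measured genes (rows, number of genes in parentheses) in each array (columns), as the mean over genes of log2 intensity centred on each gene's mean over the 6 arrays, on a scale from blue (below the mean) to red (above). The 5 proximal tubule lists run from -2.04 to -1.12 in Sham 1 and CPB 2, from -0.41 to -0.17 in Sham 3 and from 0.68 to 1.48 in the LRP2-high arrays, and the umbrella cell list is highest in Sham 3, at 1.64.

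The map of list levels shows that the arrays did not fall on a single scale from proximal tubule to urothelium. Over all 62 proximal tubule genes the mean centred level was -1.72 in Sham 1, -1.28 in CPB 2, -0.26 in Sham 3, 0.90 in Sham 2, 1.04 in CPB 1 and 1.31 in CPB 3. Over the 25 urothelium genes it was 0.30, 0.84, 0.95, -0.69, -0.65 and -0.75 in the same arrays. Sham 3 therefore had the highest pooled urothelium level of the 6, slightly above CPB 2, together with a middle proximal tubule level. The umbrella cell list and the basal and intermediate list were highest in Sham 3. The urothelium transcription factor list was highest in CPB 2, at 1.51 against 1.06 in Sham 3. Sham 1 had the lowest proximal tubule level with the lowest urothelium level of the LRP2-low arrays.

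Many endothelial genes were lower in the LRP2-high arrays. Of 17 measured, 6 were at least 2-fold lower, against 5.76% of all genes, and none at least 2-fold higher, 10 were lower and 1 higher without overlap, against 21.7% and 23% of all genes, and the median difference was -0.67. CDH5, the adhesion protein of endothelial junctions, was at 484, 321 and 362 in the LRP2-low arrays and 178, 151 and 131 in the LRP2-high arrays, and TEK, the angiopoietin receptor, at 776, 657 and 642 against 337, 272 and 241. Dimmer TEK probe sets overlapped, with -0.86 and -0.01. SELE, which captures leukocytes on activated endothelium, was at 62.02, 115 and 88.2 against 13.7, 12.5 and 12.4, the widest difference of the list (-2.74). PECAM1 gave -0.80 and CLDN5 -1.40, whereas KDR and FLT1, receptors for vascular growth factor, differed by 0.33 and 0.13 on dim probe sets. VWF overlapped, at 196, 142 and 221 against 147, 195 and 115. The 3 measured lymphatic genes differed by 0.30 to 0.33.

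Some contractile genes were lower there too. ACTA2, smooth muscle actin, was at 5437, 2979.5 and 3960.1 in the LRP2-low arrays and 1131, 972 and 1042 in the LRP2-high arrays, a difference of -1.94. TAGLN was at 979.8, 677 and 915 against 336, 251 and 266, CNN1 at 124, 197 and 206 against 76.6, 54.8 and 83.3, and TPM2 at 797, 580.4 and 766 against 335, 269 and 242. Of 17 measured smooth muscle genes 4 were at least 2-fold lower, against 5.76% of all genes, and none higher. The median difference was -0.46, and DES, MYL9 and SMTN overlapped. RGS5, a pericyte gene, was at 486, 821 and 159 against 119, 131 and 114, where CPB 2 lay near the LRP2-high arrays. Values of the second pericyte gene MCAM were 99.4, 58.4 and 57.8 against 48.8, 38.5 and 39.9. These were the 2 of 4 measured pericyte genes that were lower without overlap, against 21.7% of all genes. The other 2, PDGFRB and KCNJ8, overlapped. ACTG2 could not be read, since its brighter probe set overlapped at 424, 321 and 296 against 379, 434 and 303 and a dimmer one read 140.3, 461 and 995 against 61.8, 40.98 and 47.9.

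Fibroblast and matrix genes mostly overlapped between the sides, with 8 higher and 12 lower means in the LRP2-high arrays. Of 20 measured, 16 overlapped, 3 were at least 2-fold lower, against 5.76% of all genes, and none higher. The median difference was -0.26. FBLN1, FBN1 and SFRP1 were the 3, with differences of -1.18, -1.15 and -1.10. DCN, the proteoglycan decorin, was at 3779.5, 1880 and 2103 in the LRP2-low arrays and 1639.8, 2021 and 1208 in the LRP2-high arrays, and FN1, fibronectin, at 1108, 436 and 329.7 against 299, 441 and 303, with Sham 1 highest for both. Podocyte genes were hardly covered, with 2 of 13 measured, and these went opposite ways. WT1, which marks podocytes, was at 47.5, 56.2 and 56.7 against 75.6, 78.7 and 75.4, a difference of 0.52. TCF21 overlapped, with a lower mean in the LRP2-high arrays (-0.72). The presence of glomeruli was not measured here. GJA5 and AGTR1 overlapped.

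**Figure D3:**
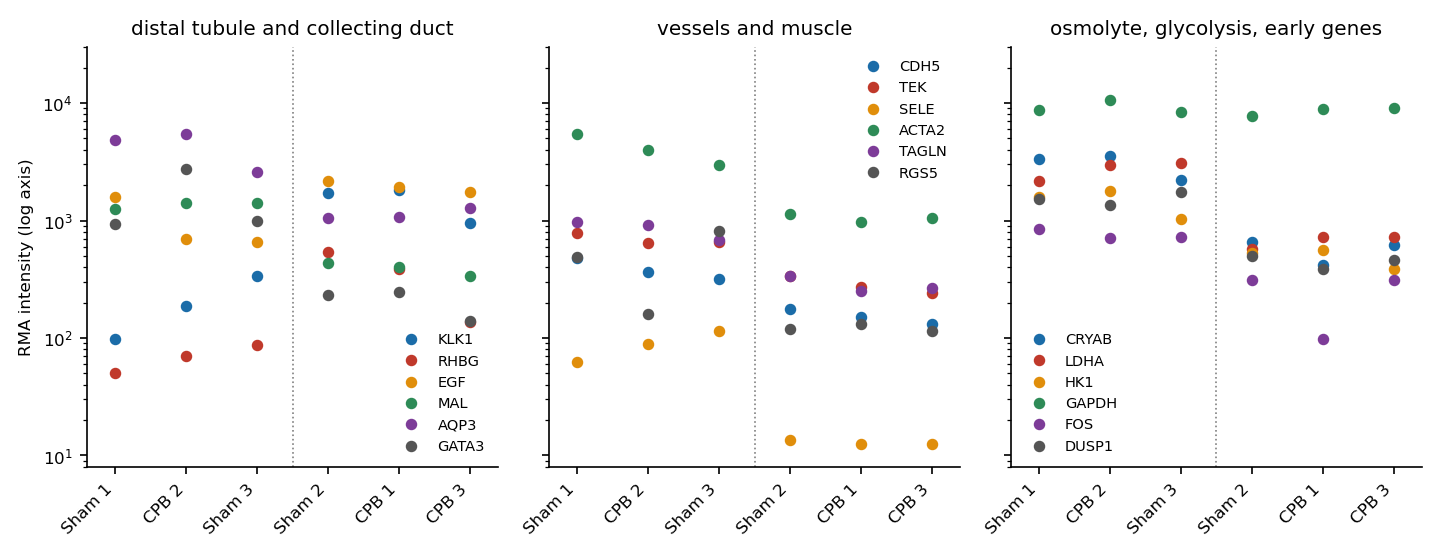
RMA intensity (log axis) by array, 1 point per array, for 6 genes of distal tubule and collecting duct, 6 of vessels and muscle, and 6 linked to osmolytes, glycolysis or early response, with LRP2-low arrays left of each dotted line and LRP2-high arrays right of it. KLK1, RHBG and EGF are higher on the right, GAPDH is at 7734 to 10560 throughout, and the other genes are higher on the left.

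Immune cell genes were mostly dim. CD3E, a T cell receptor subunit, was at 187, 99.8 and 296 in the LRP2-low arrays and 65.8, 59.9 and 61.6 in the LRP2-high arrays, and CD8A, of cytotoxic T cells, at 118, 119 and 370.2 against 84.6, 59.2 and 64.3. CPB 2 was the highest array for both. Of 10 measured T and NK genes 2 were at least 2-fold lower in the LRP2-high arrays, against 5.76% of all genes. None was at least 2-fold higher, and the median was -0.43. Among 10 monocyte and macrophage genes none was 2-fold apart. C1QC, a complement subunit of macrophages, overlapped at 690.0, 813 and 376 against 264, 460.1 and 244, and CD74, of antigen presenting cells, was at 1043, 997 and 1065 against 558, 754 and 646. S100A8 and S100A9 of neutrophils were at 16.5 to 24.9 in all arrays, near the bottom of the range. HBB, the beta globin, overlapped at 297, 378 and 191 against 247, 233 and 282.

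Energy metabolism differed by enzyme. All 13 measured subunits of oxidative phosphorylation had a higher mean in the LRP2-high arrays, by a median of 0.23. Among them 9 were higher without overlap, against 23% of all genes. SDHC, a subunit of succinate dehydrogenase, was the single one at least 2-fold apart, at 739.8, 1062 and 461 in the LRP2-low arrays and 2144, 2264 and 2776 in the LRP2-high arrays, while its partners SDHA and SDHB gave 0.50 and 0.53. Glycolysis genes had a median of -0.28. LDHA, which makes lactate, was at 2153, 3107 and 2962 against 572, 719 and 729.8, a difference of -2.01, and HK1, the first enzyme, was at 1575, 1021 and 1788 against 527, 556 and 390.3. PFKP was at 432, 233 and 658 against 150.4, 198 and 127. PGK1 and TPI1, later enzymes of the same pathway, were level, with 0.07 and -0.09. GAPDH, also a reference gene, was at 8778, 8465 and 10560 against 7734, 8869.7 and 9078, and ACTB, the cytoplasmic actin, was lower in every LRP2-high array (-0.42) at 9721, 7987 and 9165 against 6199, 7430.2 and 6491, but a dimmer ACTB probe set overlapped, at 473, 550 and 373 against 639, 549 and 729. Of the 8 measured reference genes none was 2-fold apart.

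Immediate early genes, which many stimuli induce quickly, all had lower means in the LRP2-high arrays, with a median of -0.84. At least 2-fold lower were 4 of 9, against 5.76% of all genes. FOS was at 847, 718 and 705 in the LRP2-low arrays and 314, 98.2 and 310.1 in the LRP2-high arrays, DUSP1 at 1539.5, 1749 and 1365 against 495, 385 and 463, and IER2 at 657, 487 and 601 against 314, 284 and 246. EGR1 overlapped on its brightest probe set, at 1487, 461 and 1122 against 492, 132 and 374, and was lower without overlap on another, at 973, 713 and 822 against 436, 95.05 and 196. Sham and CPB arrays stood on both sides of these differences. Of the tubule injury genes VCAM1 was at 2730.4, 1749 and 1373 against 783, 1034 and 543, and TIMP1 at 558, 304 and 482 against 273, 297 and 227, both without overlap, while SPP1 overlapped at 4682, 3765 and 3978 against 4224, 7710.3 and 3204, and CLU at 1141, 1202 and 764 against 1503, 1088 and 566. HAVCR1 and LCN2 were not named by the annotation. Cell cycle genes differed little, with a median of -0.22 and none of 10 at least 2-fold apart.

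Over all named genes, the 25 named genes with the largest difference in each direction and no overlap were read. Of the 25 higher in the LRP2-high arrays, 14 were in the proximal tubule lists, LRP2 itself among them, and those lists held 62 of the 6765 genes measured. UGT2B31, a glucuronidating enzyme of these lists, led on 1 of its probe sets, at 14.6, 138 and 24.5 in the LRP2-low arrays and 852, 214 and 1322 in the LRP2-high arrays, a difference of 4.08. HAO1, which oxidises glycolate in peroxisomes, was at 54.3, 198 and 111 against 1364, 1913 and 1749. CTH, which makes cysteine, was at 131, 499 and 114 against 1744, 2138 and 2820.2, and VNN1, a pantetheinase, at 23.7, 158 and 34.1 against 527, 319 and 760.1. The steroid and aldehyde reductases AKR1CL1 and AKR1C1 gave 3.77 and 3.56.

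A few of the leading genes encode proteins known best as products of liver secreted into blood. TF, transferrin, was at 57.9, 467 and 128 in the LRP2-low arrays and 2694, 3278 and 1217 in the LRP2-high arrays, a difference of 3.87. Of the fibrinogen chains, FGB was at 22.1, 259 and 24.4 against 622, 509 and 555, and FGG at 16.9, 25.6 and 16.97 against 142, 298 and 170.1. A second FGG probe set read 56.2, 47.8 and 71.5 against 139.7, 145 and 206, and a second TF probe set overlapped at 68.8, 106 and 76.05 against 271, 297 and 98.7. GPX3, the peroxidase that proximal tubule cells release into plasma, was at 221, 2554 and 708 against 6427, 7019.9 and 8146. Some names are doubtful. The probe set annotated RACK1, a ribosome-bound scaffold, was at 170.3, 1041 and 489 against 3983, 4944 and 5449.6, while another RACK1 probe set was level at 4536, 5323 and 4557 against 4322, 4364 and 4169, and a second probe set of CYP2D25, a vitamin D hydroxylase of pig, gave -0.52 against 3.50.

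Of the 25 genes lowest in the LRP2-high arrays, 9 were in lists, which held 289 of the 6765 genes measured. Of these, 6 were in the urothelium lists, which held 25 of the 6765, and UPK3A and MUC4 were among the 6. MMP1, interstitial collagenase, was at 171, 618 and 370.4 in the LRP2-low arrays and 13.2, 15.3 and 15.6 in the LRP2-high arrays, a difference of -4.53 against readings near the bottom of the range. PHLDA2, an imprinted growth regulator, was at 935, 1306 and 1890.3 against 105, 93.4 and 124, and NNAT, a small membrane protein of secretory cells, at 1026, 646 and 1131 against 73.8, 103 and 63.9. The neutrophil attractant CXCL2 was at 393, 458 and 352 against 35.9, 38.95 and 48.6, and CXCL9, an attractant of T cells, at 561, 891 and 1144 against 171, 155 and 114. Among them were the matrix proteins VCAN, versican, at 303, 63.4 and 122 against 15.7, 20.9 and 14.3, and TNC, tenascin, at 428, 217 and 123 against 45.3, 36.8 and 36.2. Sham 1 was the highest array for both on these probe sets, as for DCN and FN1, but another VCAN probe set overlapped, at 60.5, 77.6 and 60.5 against 78.1, 67.2 and 84.4. LGALS3, a lectin of collecting duct and other epithelia, was at 1826, 2569 and 2186 against 271, 239 and 269, and ANXA2, a membrane-binding protein, at 3474, 3852 and 4291 against 689, 604 and 539. GPRC5B, a membrane receptor, was at 1690, 1968 and 2909.7 against 378, 326 and 329. The leading genes were chosen for lack of overlap, so the same division at bright and dim readings follows from that choice. CLDN11, a tight junction protein, was at 155, 79.1 and 112 against 9.61, 10.5 and 19.5, and PKIB, an inhibitor of protein kinase A, at 102, 127 and 109 against 15.2, 15.5 and 12.3.

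The LRP2-low arrays were the more varied side. In 2015 probe sets the highest and lowest LRP2-low array were at least 2-fold apart, against 701 in the LRP2-high arrays. Taken in pairs, 1368 probe sets were at least 2-fold apart between Sham 3 and CPB 2, 920 between Sham 1 and Sham 3 and 630 between Sham 1 and CPB 2, and in the LRP2-high arrays 221 between Sham 2 and CPB 1, 385 between Sham 2 and CPB 3 and 405 between CPB 1 and CPB 3. Sham 3 was at least 2-fold above the mean of Sham 1 and CPB 2 in 666 probe sets and at least 2-fold below it in 254. Of the 878 probe sets at least 2-fold higher in the LRP2-high arrays, Sham 3 was above both other LRP2-low arrays in 654, and of the 1036 at least 2-fold lower it was below both in 498. Leaving Sham 3 out raised the counts to 995 higher and 1215 lower.

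Side differences could also be read inside each treatment from separate arrays, as Sham 2 minus the mean of Sham 1 and Sham 3, and as the mean of CPB 1 and CPB 3 minus CPB 2. Within Sham 760 probe sets were at least 2-fold higher and within CPB 1354, of which 608 were shared, or 80% of the first and 44.9% of the second. At least 2-fold lower were 1160 within Sham and 1290 within CPB, with 648 shared, or 55.9% and 50.2%, and 34 probe sets were at least 2-fold apart in opposite directions. The proximal tubule genes had a median of 1.94 within Sham and 2.61 within CPB, and 47 of 62 had the higher value within CPB. Sham 3, the intermediate array, enters the Sham reading alone, and its part in this was not tested. The urothelium genes had a median of -1.34 within each. Each reading has 1 array on one of its sides, so neither has a spread of its own there, and arrays of both were placed by the same LRP2 value.

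**Figure D4:**
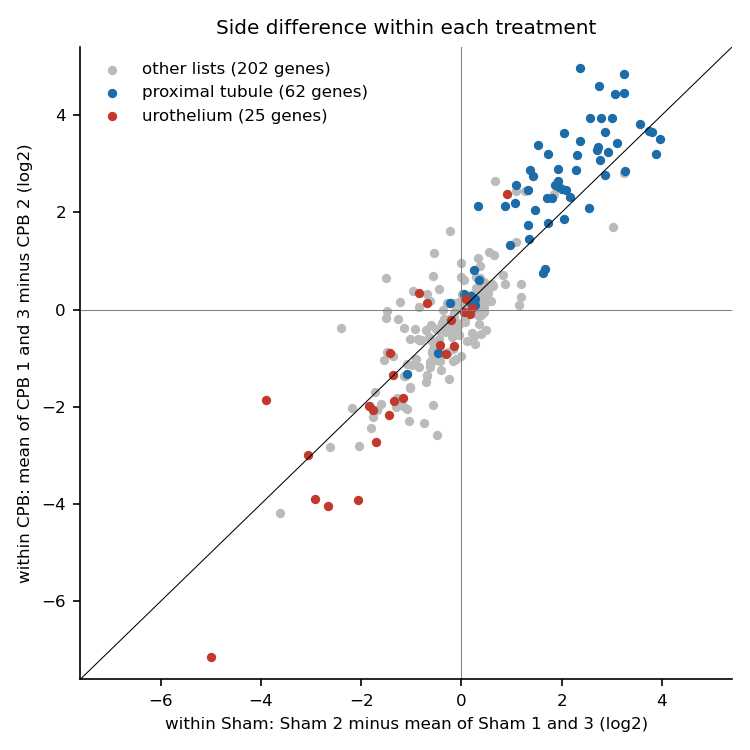
Side difference (log2, LRP2-high minus LRP2-low) of the 289 measured list genes within Sham (horizontal axis) and within CPB (vertical axis), 1 point per gene, with 62 proximal tubule genes in blue, 25 urothelium genes in red and 202 others in grey, and the line of equal differences in black. Most blue points lie at the upper right, 47 of them above the line, and MUC4 is the red point at the lower left.

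The treatment, the one labelled contrast, was tested on all probe sets. CPB against Sham gave 0 of 23999 probe sets (0%) past an adjusted p of 0.05 (limma, Benjamini-Hochberg, smallest adjusted p 0.995), with 336 at an unadjusted p under 0.05, and 73 (0.304%) at the study's own threshold of an unadjusted p under 0.05 with at least 1.6-fold. The last count was 701 without Sham 2 and 693 without CPB 2, each the only array of its treatment on its side. Of the 289 list genes 0 passed the adjusted p, and 2 met the study's threshold, PECAM1 and CLU. Of the 50 leading genes 0 met either. Both list genes were lower in CPB, PECAM1 by -0.75 (standard error 0.29) and CLU by -0.71 (standard error 0.26), each with a limma adjusted p of 0.995 and n = 3 animals per group.

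For the markers, the spread between animals of a treatment was wide. LRP2 averaged 1156 ± 1127 (SD, n = 3) for the Sham animals and 1793 ± 1413 (SD, n = 3) for the CPB animals, a log2 difference of 0.52 with a standard error of 1.39. For MUC4 the means were 575 ± 487 (SD, n = 3) and 1251 ± 2121 (SD, n = 3), and for UPK3A 335 ± 243 (SD, n = 3) and 316 ± 451 (SD, n = 3). The SDs were of the order of the means. The 62 proximal tubule genes had a median difference between CPB and Sham of 0.75 with a median standard error of 0.94. With the side, itself taken from LRP2, added as a term to the same limma fit, 93 probe sets met the study's threshold, of which 43 were among the 73, and again 0 passed the adjusted p, with 540 at an unadjusted p under 0.05. The part of the side in any difference between CPB and Sham was not tested further.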

How the data were processed

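Total RNA of renal medulla from 3 Sham and 3 CPB pigs was hybridised to Affymetrix porcine arrays, 1 per animal. With ArrayStar, the authors applied RMA (background correction, quantile normalization, median polish) and deposited an intensity per probe set on the linear scale, without detection calls, so signal over background is not known. Control probe sets (124 of 24123) were left out and log2 was taken. The array annotation gives 1 symbol for 10099 probe sets and several for 198, and the rest are unnamed here. No genome build is named, so no positions are given. The number of arrays limits the precision.

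The side of each array was set by the LRP2 intensity. The members, the 37 gene lists and the rule for named genes were chosen with earlier results of these data known. The rule for named genes covered LRP2, UPK3A, MUC4, GAPDH and ACTB. It also covered the first 6 measured genes of each list and up to 6 with the largest difference. The 25 leading genes in each direction with no overlap came under it too. Not every gene under the rule is printed. No gene of the adipocyte, peripheral nerve, B and plasma cell, lymphatic or cell cycle lists is named. Other list members were named after their values had been seen. For lists 1 probe set per gene was kept, that with the highest mean. CPB and Sham were compared with limma 3.58.1 in R 4.3.3, and the other values were computed with Python 3.11.15, pandas 2.3.3 and numpy 2.4.6. Both steps were tested on simulated data. Alternatives were other scalings, fold minimums, leaving out dim probe sets or each array, each treatment alone, added terms in the limma fit and the methods' t-test.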

Additional observations from a re-analysis of the deposited data

How the results depend on the processing

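At a fold minimum of 1.5, 1770 probe sets were higher and 2439 lower in the LRP2-high arrays, and at 4, 245 and 159. Within CPB alone 1354 were higher. Leaving out 1 array at a time gave 810 to 995 higher and 920 to 1215 lower. The enzyme list of the proximal tubule had a median of 2.1 to 3.00 when 1 array was left out. The umbrella cell list, of 6 genes, had -2.59 to -1.94 when 1 array was left out, -3.25 without dim probe sets, -1.87 in the CPB arrays alone and -2.00 with every probe set of a gene averaged. Over the 26 lists of at least 5 genes, 274 of 312 medians recomputed under an alternative moved by less than 1 SD between arrays. Of 137 named probe sets at least 2-fold apart, 11 were under 2-fold in the Sham arrays alone and 6 in the CPB arrays alone.

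For CPB against Sham, the adjusted p was passed by 0 probe sets under every alternative run. At the study's threshold the count became 166 with the log2 LRP2 intensity as a covariate (85 higher, 81 lower) and 30 with the methods' t-test (0 after Benjamini-Hochberg), against 73. Leaving out 1 array gave 52 to 701, with 701 without Sham 2 and 693 without CPB 2, each the one array of its treatment on its side. With the replicate number as a block 76 probe sets met the study's threshold and 0 passed the adjusted p, but the numbers did not pair the samples (correlations of deviations of -0.39, -0.68 and -0.02). Without detection calls, differences between readings near the bottom of the range, such as those of MUC4 and SELE, are not bounded.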

Other observations

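A few interferon-induced genes, picked after their values had been seen, were highest in an array of each side, whereas CXCL9, which interferon also induces, was higher in every LRP2-low array. RSAD2, an antiviral enzyme, was at 1113, 113 and 114 in the LRP2-low arrays and 62.2, 1402 and 55.5 in the LRP2-high arrays, so that Sham 1 and CPB 1, on opposite sides and in opposite treatments, were the 2 highest arrays. The same pair was highest for MX1, at 1583, 252 and 565 against 137, 2515 and 153, for OAS1, at 749, 71.1 and 111 against 95.1, 417 and 45.2, for ISG15, at 1189.7, 251 and 273 against 220.3, 2634 and 191, and for IFIT1 on all 3 of its probe sets, at 1209, 317 and 246 against 119, 994 and 114 on one of them.

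Genes high in Sham 3 alone were chosen in the same way. ADAM28, a membrane protease, was at 48.2, 319.9 and 42 in the LRP2-low arrays and 37.1, 34.5 and 32.7 in the LRP2-high arrays, SRGN, the proteoglycan of secretory granules, at 690.4, 2534 and 314 against 444, 286 and 235, and FUT2, a fucosyltransferase of mucosal epithelium, at 136, 492 and 41.8 against 71.9, 121 and 61.9. ALDH1A1, a retinal dehydrogenase, was at 529.6, 2556 and 399 against 2509, 1430.1 and 2776, with Sham 3 among the LRP2-high arrays, as for HSD17B2. PMCH was high in Sham 1 alone, at 191, 14.8 and 14.3 against 14.8, 16.02 and 15.4. A second probe set annotated to GAPDH read 1688, 1467 and 2585 against 412, 574 and 447, a difference of -1.97, unlike the brightest one, which was level.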
